A study of Danio rerio with 4 samples.

Results

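Draculin (drl), draculin-like drll.1 and drll.2, bloody fingers (blf), zinc finger-like znfl2a and the hematopoietic death receptor gene hdr are 6 of the 25432 genes counted in 4 single cell libraries of zebrafish embryos at 3 dpf. The list was chosen by gene name, with the levels of these genes across blood and endothelial cells already known from the same libraries. Levels across cell classes are therefore given below as a description, without a test. The study compared flt1−/− embryos, which carry the flt1ka604 allele in the Tg(kdrl:EGFP)zf531Tg line as the labels name it (the methods list the kdrl:EGFP reporter under another allele, s843), with WT embryos of the same line, and its question was how vessels sprout when the Vegf-binding receptor Flt1 is missing. There are 2 flt1−/− and 2 WT libraries, each made from GFP+ cells that were sorted by FACS from whole embryos and pooled over many embryos. Both genotypes carry the kdrl:EGFP reporter, whose promoter is active in endothelial cells. How the blood, epithelial and other cells described below came through the sort was not measured. All 4 libraries are from the same age, without a treatment.

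drl, drll.1 and drll.2 encode zinc finger proteins of one family, and drl is known in zebrafish as an early marker of the lateral plate mesoderm that gives rise to blood, vessels and heart. blf encodes a zinc finger protein of primitive erythroid cells in zebrafish. hdr encodes a death receptor of the TNF receptor family and not a zinc finger protein, so a name for the 6 genes as zinc finger genes does not cover it. Blood progenitors feed the erythroid, thrombocyte, myeloid and lymphoid lineages, and genes of early progenitors are usually lowered as cells mature, while lineage genes come up. In the RefSeq table for the GRCz12tu assembly, which is not the assembly used for counting, drl, drll.1, drll.2 and a further member, drll.3, lie next to one another on chromosome 5, and the annotated spans of drl and drll.1 overlap. hdr is on chromosome 5 outside that row, blf on chromosome 22 and znfl2a on chromosome 2. The span of blf overlaps 16 other coding genes in that table. Because neighbouring near copies can share reads, the split of counts among drl, drll.1 and drll.2, and the level of blf, are uncertain to the extent that reads were shared.

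The libraries held 3261 and 1837 called cells for flt1−/− and 1190 and 1389 for WT. Of these, 2065 and 1296 flt1−/− cells and 737 and 1093 WT cells passed the gene number and mitochondrial thresholds that the study used. Their median depth per library was 11165 to 16940 unique molecular identifiers (UMIs, 1 per captured transcript). Pairs of libraries shared 0 to 4 cell barcodes. The flt1ka604 allele is a short deletion in an exon far from the 3′ end that is read, so flt1 counts do not check the genotype: in endothelial-like cells flt1 had 356 and 306 CPM (UMIs of the gene relative to all UMIs of the same cells, scaled to a fixed total) in flt1−/− libraries, against 389 and 303 CPM in WT libraries. Clusters were named "-like" after fixed marker genes, with the 6 genes kept out of the clustering. Progenitor-like cells were 1 cluster of 364 cells, 118 and 76 from flt1−/− and 60 and 110 from WT libraries, that is 5.71% and 5.86% of kept flt1−/− cells against 8.14% and 10.1% of kept WT cells. That name rests on 3 of 8 progenitor markers, myb (731 CPM over all these cells), lmo2 (331 CPM) and tal1 (151 CPM). In contrast, runx1 (6.85 CPM) and gata2b (6.5 CPM), which define the first definitive blood stem cells, were near 0. The count of markers alone does not set this cluster apart. Thrombocyte-like and dividing thrombocyte-like cells each held 4 of the 8, and endothelial-like and lymphatic-like cells 3 of 8. The genes rhag and gata1b, linked to erythroid cells, were among the 10 leading genes of the progenitor-like cluster. Of these 2, gata1b was lower in the part of the cluster rich in the erythroid gene slc4a1a, described below. kdrl, the gene behind the sorted reporter, had 1.17 and 2.55 CPM in progenitor-like cells of flt1−/− libraries, against 4.55 and 2.25 CPM in those of WT libraries.

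Of the UMIs counted for each gene in kept cells, more than those of any other class came from progenitor-like cells: 76.8% of 1832 UMIs for drl, 53.5% of 1963 for drll.1, 61.8% of 2296 for drll.2, 58.8% of 21607 for blf, 61.1% of 7642 for znfl2a and 66.0% of 5681 for hdr. The mean level there was 119 ± 90.5 CPM for drl, 93.4 ± 22.0 CPM for drll.1 and 125 ± 34.4 CPM for drll.2 (SD, n = 4 libraries). blf reached 1102 ± 403 CPM, znfl2a 418 ± 103 CPM and hdr 327 ± 31.5 CPM (SD, n = 4). Relative to its mean, the SD among libraries was widest for drl, which ran from 26.9 to 234 CPM, and narrowest for hdr, which ran from 287 to 357 CPM. Outside the progenitor-like cells the 6 genes parted: hdr and blf stayed high in thrombocyte-like cells and znfl2a in erythroid-like cells. drll.1 and drll.2 were next highest in thrombocyte-like cells (63.4 and 49.8 CPM). They were lower, but still present, in granulocyte-like cells (20.1 and 22.5 CPM).

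**Figure D1:**
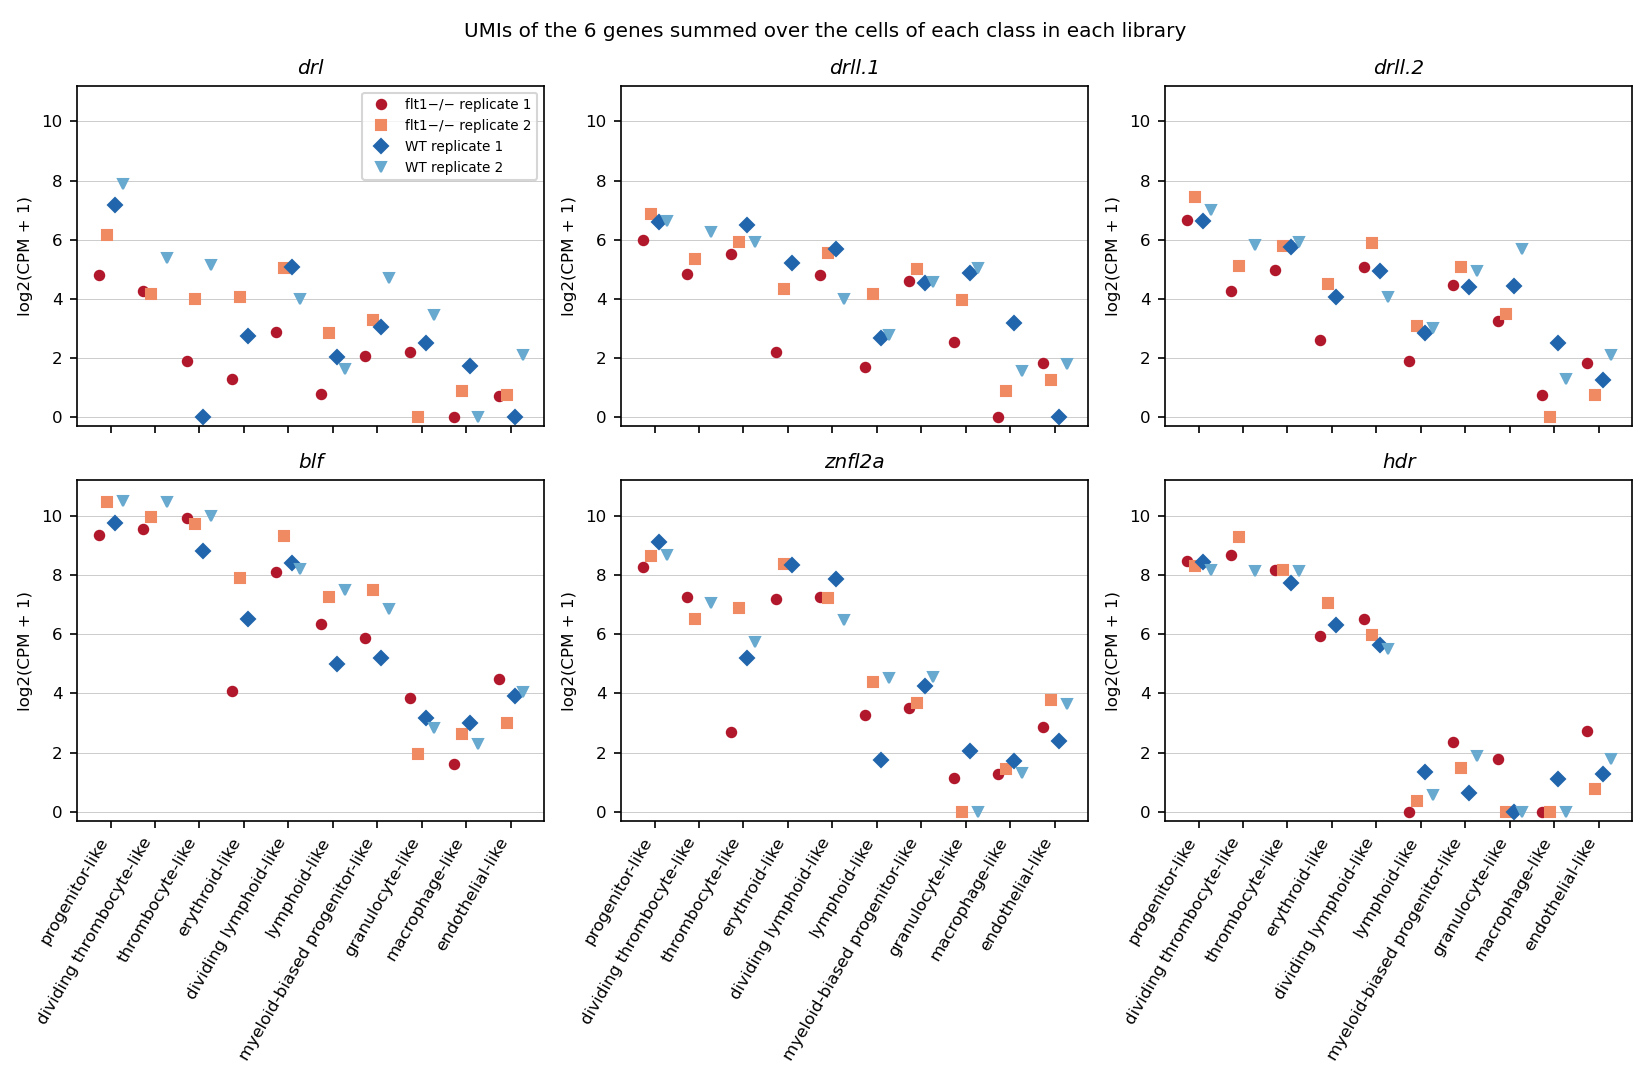
Level of each of the 6 genes, as log2(CPM + 1) on the vertical axis, in 10 cell classes; each point is 1 library (red and orange flt1−/−, dark and light blue WT), and sums of fewer than 10 cells are not drawn. Points for hdr stand for 0 to 4.10 CPM from lymphoid-like to macrophage-like cells. In the 4 libraries of granulocyte-like cells the points stand for 4.83 to 32.3 CPM of drll.1 and 8.45 to 50.5 CPM of drll.2.

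drl was the gene most narrowly held by progenitor-like cells. Its next levels were 25.5 ± 13.6 CPM in dividing thrombocyte-like cells (SD, n = 3), 21.7 ± 13.1 CPM in dividing lymphoid-like cells and 13.0 ± 15.6 CPM in thrombocyte-like cells (SD, n = 4). It had 11.19 ± 9.77 CPM in myeloid-biased progenitor-like cells, 7.69 ± 7.40 CPM in erythroid-like cells (n = 3), 3.04 ± 2.30 CPM in lymphoid-like cells and 1.16 ± 1.46 CPM in endothelial-like cells. The libraries' ranges of neighbouring classes in this order overlapped for every pair, the first included, since the lowest progenitor-like library (26.9 CPM) lay below the highest dividing thrombocyte-like one (41.2 CPM). Erythroid-like cells have n = 3 since 1 WT library held 6 of them, and dividing thrombocyte-like cells since 1 WT library held 5. The dividing lymphoid-like class is mixed, as described below. Its 72 cells with an hdr UMI had 91.7 ± 50.7 CPM of drl, against 5.46 ± 3.86 CPM in its other 267 cells.

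drll.1 and drll.2 had the highest correlation of any pair of the 6. Across 60 sums of a class in a library, covering 16 classes, Pearson's r of log2(CPM + 1) was 0.928 between drll.1 and drll.2, 0.861 between drl and drll.1 and 0.856 between drl and drll.2; sums of one library share its depth and its free RNA. Of 7132 genes compared, drll.1 and drll.2 were each other's nearest, and drl had both as its nearest. In thrombocyte-like cells drll.1 had 44.5 and 59.9 CPM in flt1−/− libraries, against 89.3 and 59.9 CPM in WT libraries, a mean of 67.9% of its progenitor-like level, and drll.2 had 39.9% of its own. For drll.2 the range of progenitor-like cells (97.7 to 172 CPM) lay above that of thrombocyte-like cells (30.6 to 59.9 CPM), whereas for drll.1 the ranges overlapped. Granulocyte-like cells, which held 9 of 9 granulocyte markers such as mpx and lyz, had 20.1 ± 12.7 CPM of drll.1 and 22.5 ± 19.5 CPM of drll.2 (SD, n = 4). There blf had 7.55 ± 4.35 CPM, znfl2a 1.1 ± 1.5 CPM and hdr 0.603 ± 1.21 CPM, each under 1% of its progenitor-like level. With no upper limit on genes and a mitochondrial limit of 10%, and the cells clustered anew, these 3 reached 52.8, 30.7 and 16.5 CPM. drll.3, the further gene of the row on chromosome 5, had 9.05 ± 5.01 CPM in progenitor-like cells, 2.66 ± 2.05 CPM in thrombocyte-like cells and 0.158 ± 0.317 CPM in endothelial-like cells (SD, n = 4). The symbols drl.3 and znfl2b were also looked for and gave no values here.

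blf stayed near its progenitor-like level in both thrombocyte-like classes. It had 1060 ± 336 CPM in dividing thrombocyte-like cells (n = 3) and 825 ± 264 CPM in thrombocyte-like cells, both overlapping the range of progenitor-like cells. In thrombocyte-like cells blf had 977 and 843 CPM in flt1−/− libraries, against 447 and 1033 CPM in WT libraries. In lymphoid-like cells, which held 11 of 11 lymphoid markers, blf had 80.1 and 152 CPM in flt1−/− libraries, against 30.6 and 181 CPM in WT libraries. The mean was 10.1% of its progenitor-like level, while hdr in the same cells was at 0.580 ± 0.687 CPM. In erythroid-like cells blf had 15.96 and 240 CPM in the flt1−/− libraries, against 90.8 CPM in the WT library with enough cells, so that its range there overlapped that of lymphoid-like cells. The genes most like blf were susd1 (r = 0.861), smchd1 (r = 0.846), drll.1, drll.2 and hdr.

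znfl2a was the gene with the highest share of its level kept in erythroid-like cells, which held 14 of 14 erythroid markers. It had 147 and 331 CPM there in the flt1−/− libraries, against 321 CPM in the WT library, a mean of 266 ± 104 CPM (SD, n = 3) or 63.7% of its progenitor-like level. At the finer resolution described below, part of the progenitor-like cells took the erythroid-like name, and the erythroid-like means were then 394.5 CPM for znfl2a, 739 CPM for blf, 274 CPM for hdr and 71.1 CPM for drl. At the resolution used here hdr kept 27.7% of its progenitor-like level, drll.1 21.0%, drll.2 11.4%, blf 10.5% and drl 6.47%. In thrombocyte-like cells the order was different, with znfl2a at 12.6% and hdr at 81.9% of their progenitor-like levels. The genes most like znfl2a across classes were rfesd (r = 0.843), kel (r = 0.825), which encodes a blood group protein of red cells in humans, slc4a1a (r = 0.823), the anion exchanger of red cells, epb41b (r = 0.822), a protein of the red cell membrane skeleton, and blf.

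hdr was the one gene of the 6 whose mean was highest outside the progenitor-like cells. Dividing thrombocyte-like cells had 407 and 625 CPM in flt1−/− libraries, against 279 CPM in the WT library with enough cells, a mean of 437 ± 175 CPM, overlapping the range of progenitor-like cells. Thrombocyte-like cells, with 6 of 6 thrombocyte markers, had 287 and 287 CPM in flt1−/− libraries, against 214 and 283 CPM in WT libraries, just below the lowest progenitor-like library. Erythroid-like cells followed with 90.5 ± 37.6 CPM (n = 3). In lymphoid-like, myeloid-biased progenitor-like, granulocyte-like, macrophage-like and endothelial-like cells the mean was 0.291 to 2.57 CPM. The genes most like hdr were gata1a (r = 0.927), a master factor of erythroid and thrombocyte cells, si:ch211-250g4.3 (r = 0.895), rell2 (r = 0.889), gfi1b (r = 0.886), a repressor needed in the same lineages, and hif1al2 (r = 0.879).

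**Figure D2:**
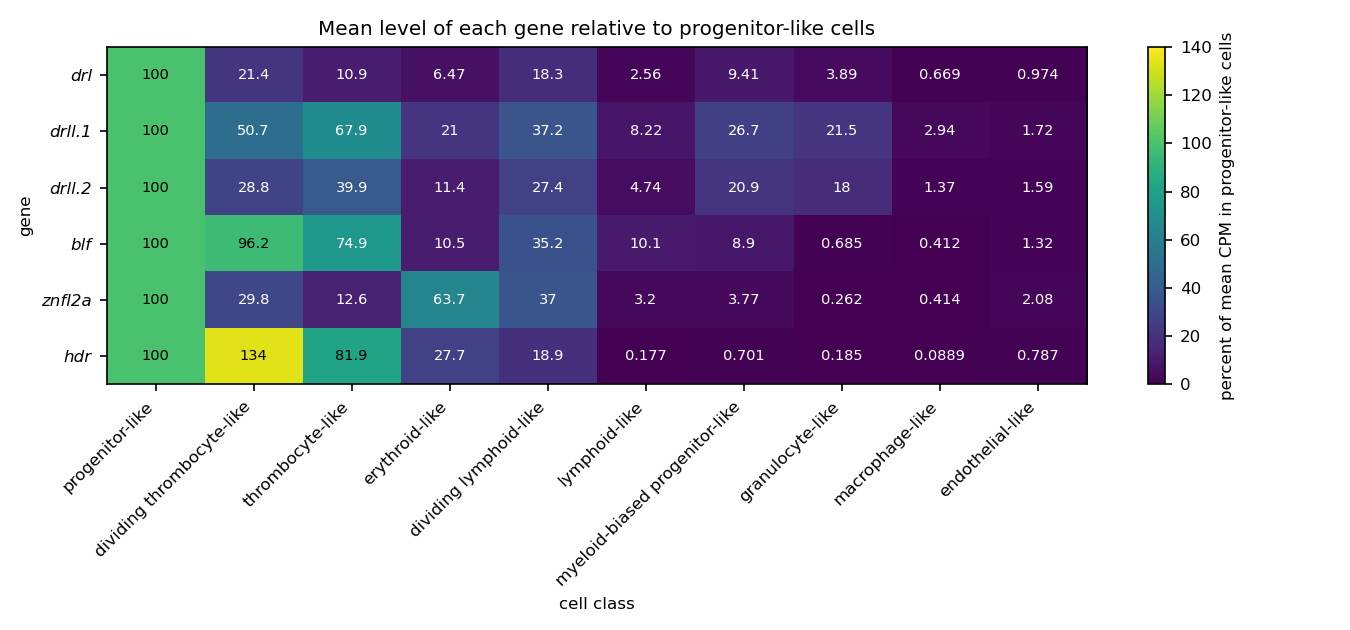
Mean level of each gene (rows) in 10 classes (columns) as a percent of its own mean CPM in progenitor-like cells; the number in each cell is that percent. hdr reaches 134% in dividing thrombocyte-like cells, and znfl2a 63.7% in erythroid-like cells.

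Macrophage-like and endothelial-like cells held little of any of the 6 genes. The macrophage-like name rests on only 3 of 11 macrophage markers, and that cluster also held 3 of 6 myeloid-biased progenitor markers. The endothelial-like level was 14.6 ± 5.97 CPM for blf, 8.68 ± 4.04 CPM for znfl2a and 1.16 to 2.57 CPM for the other 4. Over all 6 genes this is 0.787% to 2.08% of the progenitor-like level. To compare shares of cells at equal depth, every cell was thinned to 1000 UMIs. Then 10.8% of 361 progenitor-like cells held a UMI of drl, 9.70% of drll.1, 9.14% of drll.2, 64.3% of blf, 30.2% of znfl2a and 24.1% of hdr. In 615 epithelial-like cells, which should lack these genes and measure free RNA, the shares were 0% for drl, drll.1 and drll.2 (0 of 615 cells allows up to 0.488%), 0.488% for blf and 0.163% each for znfl2a and hdr. Of 623 endothelial-like cells, 0.963% held blf (95% exact Clopper-Pearson interval 0.354% to 2.08%) and 1.28% znfl2a (0.556% to 2.51%). Both intervals overlapped those of the epithelial-like shares, whose upper bounds were 1.42% for blf and 0.903% for znfl2a. Overlap of intervals does not decide whether the shares differ, and the difference from background was not tested. In CPM, blf had 21.5 and 7.01 in endothelial-like cells of flt1−/− libraries and 14.1 and 15.7 in those of WT libraries, on 10 to 34 UMIs per library. These values lay above the 1.98 to 5.32 of the epithelial-like and the 1.57 to 5.86 of the endocardial-like sums. They overlapped the sums of other classes outside blood, with 0 to 40.3 in mesenchymal-like, 1.21 to 30.1 in lymphatic-like, 0 to 12.1 in neuron-like and 0 to 7.70 in dividing epithelial-like cells. A level of blf above background in endothelial-like cells is therefore not shown. In endothelial-like cells znfl2a had 6.33 and 12.6 CPM in flt1−/− libraries, against 4.24 and 11.5 CPM in WT libraries. The epithelial-like sums had 0.699 to 5.86 CPM of znfl2a, which overlaps this range. With other cell limits or without the cells of highest doublet score, the mean endothelial-like blf was 31.3 or 6.75 CPM. In 732 lymphoid-like cells 9.43% held blf (7.41% to 11.8%), well above the epithelial-like 0.488%. Without thinning, at a median of 31208.5 UMIs per progenitor-like and 10615 per epithelial-like cell, 69.0% of progenitor-like cells held drl, 82.7% drll.1, 87.9% drll.2, 99.2% blf, 95.6% znfl2a and 95.3% hdr, against 0% to 3.84% of epithelial-like cells.

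Joint detection of the genes in single progenitor-like cells was close to what independent detection gives. After thinning, 46.8% of these cells held UMIs of 2 or more of the 6 genes, where the single shares give 46.3% if the genes are detected independently. At full depth drll.1 and drll.2 were found together in 77.0% ± 10.7 of progenitor-like cells (SD, n = 4), where independent detection in each library gives 74.4%, and the observed share was higher in 4 of 4 libraries. For the other 14 pairs the observed share was higher in 1 to 3 libraries, and the means were closest for blf with hdr (94.8% against 94.6%) and farthest apart for drl with drll.1 (65.2% against 62.4%). At full depth 99.2% of these cells held blf, 95.6% znfl2a and 95.3% hdr. Joint shares with these genes could therefore hardly differ from the independent value, and their closeness decides nothing. Deep cells hold more UMIs of every gene, and the part of depth in joint detection was not tested.

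Dividing lymphoid-like cells held cells with and without hdr, and the other 5 genes were higher in those with it. Their 339 cells held 10 of 12 proliferating and 9 of 11 lymphoid markers, and a mean of 388 ± 173 CPM of blf, 155 ± 59.5 CPM of znfl2a and 61.7 ± 20.8 CPM of hdr (SD, n = 4). The 72 cells with an hdr UMI, split off after the values were seen and described without a test, had 49.0 ± 43.5 CPM of ccr9a, a thymus homing receptor, against 931 ± 57.8 CPM in the 267 cells without (SD, n = 4 libraries). The same 72 cells had 1191 ± 388 CPM of blf, 506 ± 188 CPM of znfl2a and 91.7 ± 50.7 CPM of drl, against 190 ± 122, 60.6 ± 24.4 and 5.46 ± 3.86 CPM in the rest. They had 113 ± 36.0 CPM of drll.1 and 118 ± 58.8 CPM of drll.2, against 15.1 ± 8.47 and 10.9 ± 4.2 CPM. tal1 had 110 ± 93.3 CPM in them, against 3.19 ± 3.19 CPM, and slc4a1a 550 ± 337 CPM, against 9.11 ± 17.1 CPM. The levels of blf, znfl2a and drl in the 72 cells are close to those of progenitor-like cells. The depth was 19065 to 35010 UMIs in the median cell with hdr, against 22843 to 26503 without.

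At a finer resolution the progenitor-like cells split into 237 cells (finer cluster 7) and 127 cells (finer cluster 16), the second with the erythroid gene slc4a1a at 654 ± 45.9 CPM, against 66.2 ± 21.6 CPM in the first (SD, n = 4). The members moved apart along this split. hdr had 398 ± 47.6 CPM in the slc4a1a-rich cells, against 280 ± 24.2 CPM, and was higher in each of the 4 libraries. znfl2a had 486 ± 161 CPM, against 371 ± 62.2 CPM, and was also higher in 4 of 4 libraries. drl had 98.8 ± 64.0 CPM, against 131 ± 103 CPM, drll.1 82.0 ± 25.1 CPM, against 102 ± 16.4 CPM, and drll.2 112 ± 33.0 CPM, against 133 ± 33.1 CPM. drll.1 and drll.2 were lower in the slc4a1a-rich cells in 4 of 4 libraries and drl in 3 of 4. blf had nearly equal means, with 1110 ± 476 CPM, against 1114 ± 351 CPM. Of the genes leading the whole cluster, gata1b had 17.1 ± 1.55 CPM in the slc4a1a-rich cells, against 69.8 ± 17.0 CPM. No test was made on this split, since the clustering used genes of the same cells.

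The contrast of flt1−/− with WT was not used in choosing the genes and was tested within each class with edgeR's quasi-likelihood test on UMIs summed per library, adjusted over all genes with the Benjamini-Hochberg method. In progenitor-like cells 0 of the 6 genes passed an adjusted p of 0.05. The background was as low: 2 of 7518 genes tested there were called (0.0266%), both higher in flt1−/−. They were prickle2b and si:ch211-121a2.2, named after their values were seen. drl came nearest among the 6. It had 26.9 and 71.0 CPM in flt1−/− libraries, against 144 and 234 CPM in WT libraries. The log2 fold change of drl was −2.20 (SE 0.432), and the edgeR adjusted p was 0.283. The call turned on the method, and over 14 alternatives the log2 fold change ran from −2.98 to −1.68. drl passed in DESeq2's Wald test (adjusted p 3.05e-05), where 26 of 7518 genes passed. In edgeR it passed with the replicate number as a block (adjusted p 1.48e-05), beside 142 of 7518 genes. Without a filter it passed in edgeR (adjusted p 2.29e-13), beside 151 of 16413 genes. With DESeq2's size factors in edgeR, other resolutions, looser cell limits or without the cells of highest doublet score it did not pass. Without WT replicate 1 the log2 fold change was −2.48, and without WT replicate 2 it was −1.85. With 1 WT library left, the spread comes from the flt1−/− pair and the lone library is assumed to vary like it, so these fits are weak support for a call.

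The neighbours of drl on chromosome 5 overlapped between the genotypes. drll.1 had 62.8 and 115 CPM in flt1−/− libraries, against 96.4 and 99.0 CPM in WT libraries (log2 fold change −0.37, SE 0.280). drll.2 had 101 and 172 CPM in flt1−/− libraries, against 97.7 and 128 CPM in WT libraries (0.04, SE 0.272). Whether the drl difference is itself larger than theirs was not tested. znfl2a had 309 and 400.2 CPM in flt1−/− libraries, against 558 and 405 CPM in WT libraries, with a log2 fold change of −0.67 (SE 0.223). Its edgeR adjusted p was 0.728. The genotypes did not overlap, but the nearest libraries were barely apart. How many of the 7518 genes tested in progenitor-like cells also parted without overlap, as drl and znfl2a did, was not counted. The parting is therefore not read as a result about these genes. blf had 661 and 1419 CPM in flt1−/− libraries, against 860 and 1467 CPM in WT libraries (−0.39, SE 0.350), and hdr 357 and 316 CPM, against 347 and 287 CPM (−0.13, SE 0.199). 

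**Figure D3:**
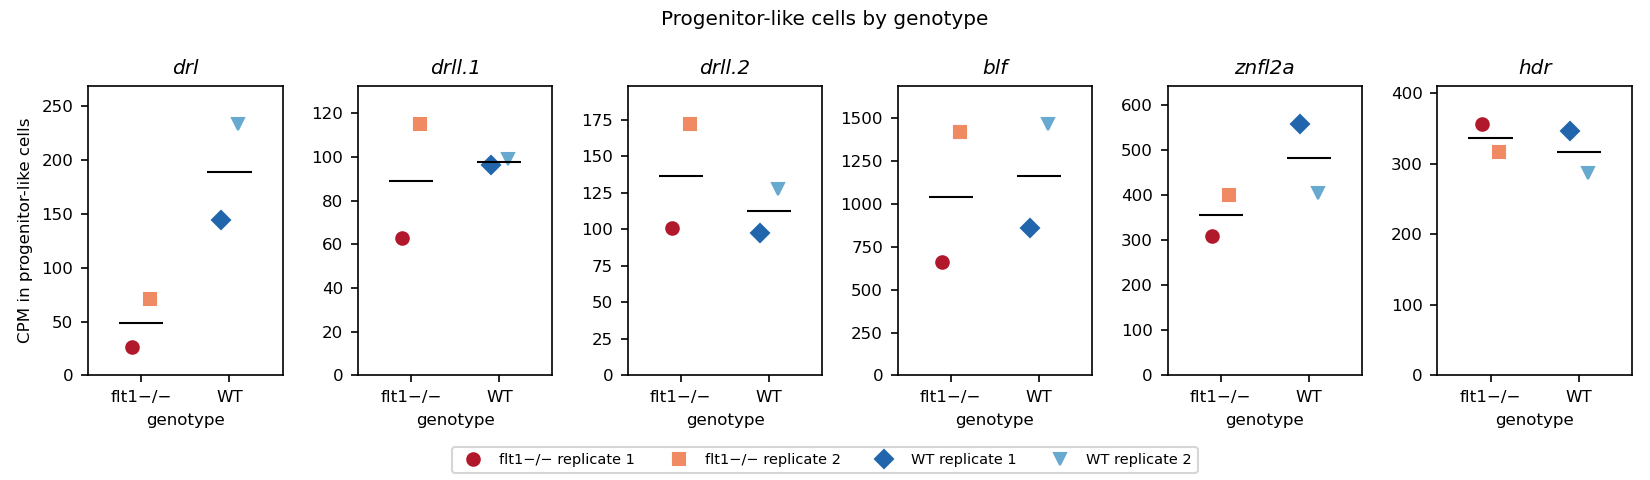
CPM of each gene in progenitor-like cells, flt1−/− libraries on the left and WT libraries on the right of each panel; points are libraries and black lines the mean of the 2. The WT points lie above both flt1−/− points for drl and, barely, for znfl2a (nearest points 400.2 and 405 CPM), and overlap them for the other 4 genes. The share of all genes that part this way was not counted.

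The lower drl in flt1−/− was present in both finer clusters of progenitor-like cells, which were looked at after the values were seen. In finer cluster 7 drl had 31.3 and 69.1 CPM in flt1−/− libraries, against 161 and 263 CPM in WT libraries (log2 fold change −2.24, SE 0.362, adjusted p 0.107). In finer cluster 16 it had 22.9 and 75.4 CPM, against 126 and 171 CPM (−2.04, SE 0.470, adjusted p 0.131). The slc4a1a-rich part was 44.9% and 25.0% of progenitor-like cells in flt1−/− libraries, against 41.7% and 27.3% in WT libraries, and the median depth was 27566.5 and 30735.5 UMIs, against 37485.5 and 32764 UMIs. The sum of 14 erythroid markers was 2384 and 1330 CPM in flt1−/− libraries, against 2823 and 969 CPM in WT libraries, and that of 11 lymphoid markers 293 and 277 CPM, against 147 and 168 CPM. Most of the lymphoid sum came from bcl11ba (99.1 CPM over all progenitor-like cells) and ikzf1 (92.6 CPM), while rag1 and zap70 were at 0. The lymphoid sum parted the genotypes without overlap, as drl did in the other direction, and its part in the drl difference was not tested. Cells that the limits left out gave the same order of the genotypes. Those with at least 4500 genes had 6.92 and 22.5 CPM of drl in flt1−/− libraries, against 44.5 and 62.9 CPM in WT libraries. Those with at least 5% mitochondrial counts had 2.25 and 3.05 CPM, against 23.1 and 9.39 CPM. The latter sums hold 639096 to 2218003 UMIs of all genes, so these drl values rest on few UMIs. The order of the genotypes was not particular to drl. In the cells with at least 5% mitochondrial counts each of the other genes was also lower in both flt1−/− libraries. There blf, for example, had 62.2 and 103 CPM in flt1−/− libraries, against 251 and 269 CPM in WT libraries. In the cells with at least 4500 genes drll.1, znfl2a and, barely, hdr had the same order, while blf and drll.2 overlapped. Both sets hold all cell types, and the share of progenitor cells in them was not measured. In these sums fewer cells of a type and less RNA per cell cannot be told apart.

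**Figure D4:**
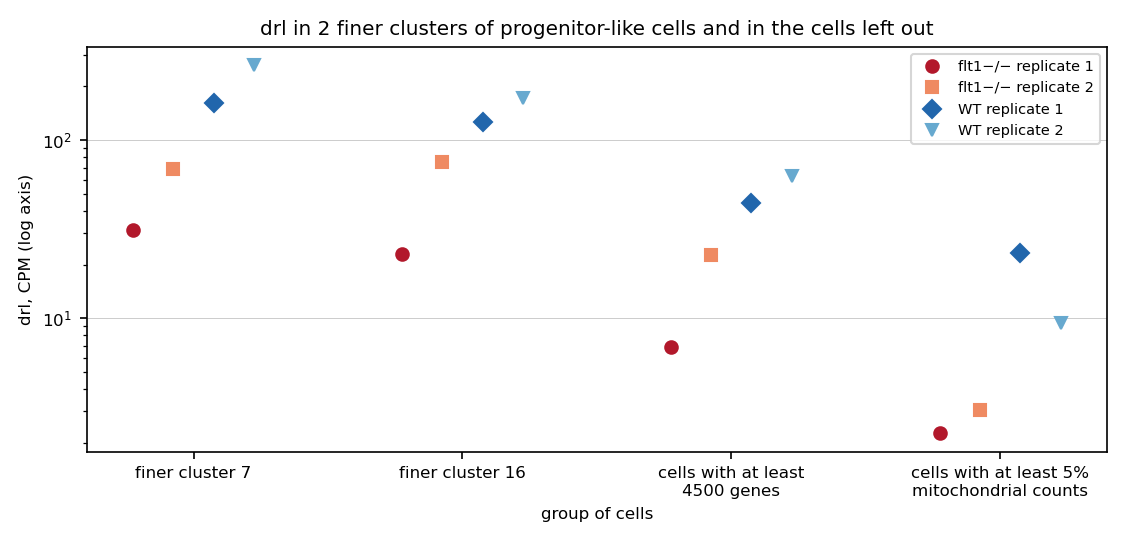
drl in CPM on a log axis, in the 2 finer clusters of progenitor-like cells and in 2 sets of cells that the limits left out; points are libraries (red and orange flt1−/−, dark and light blue WT). In each of the 4 groups both flt1−/− points lie below both WT points. The share of all genes with this order was not counted in any of the groups.

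In other classes drl was not as clearly apart. Myeloid-biased progenitor-like cells had 3.19 and 8.84 CPM in flt1−/− libraries, against 7.32 and 25.4 CPM in WT libraries, which overlap, with a log2 fold change of −1.55 (SE 0.630, adjusted p 0.561). With the replicate number as a block the adjusted p of drl in edgeR was 0.0295, where 320 of 7383 genes passed. Without a filter it was 0.0411, where 211 of 16649 genes passed. Over 12 alternatives the log2 fold change ran from −2.45 to −0.40, with −2.13 without WT replicate 1. Dividing lymphoid-like cells had 6.46 and 32.3 CPM, against 33.1 and 15.1 CPM (−0.61, SE 0.756), and lymphoid-like cells 0.746 and 6.16 CPM, against 3.14 and 2.13 CPM (0.36, SE 0.917). The lymphoid-like values rest on 3 to 22 UMIs per library. Among dividing lymphoid-like cells, those with an hdr UMI were 43 of 163 and 10 of 58 in flt1−/− libraries, against 14 of 60 and 5 of 58 in WT libraries. The part of this mixture in the genotype values of that class was not tested. blf in myeloid-biased progenitor-like cells had 58.3 and 182 CPM in flt1−/− libraries, against 36.1 and 116 CPM in WT libraries, with a log2 fold change of 0.56 (SE 0.548, adjusted p 0.844). With the replicate number as a block blf passed (adjusted p 0.0407 in edgeR), again beside 320 of 7383 genes. Its log2 fold change was 1.61 without WT replicate 2 and turned to −0.47 without flt1−/− replicate 2. In lymphoid-like cells blf was at −0.02 (SE 0.634) and, without WT replicate 2, at 1.83. It passed in none of the alternatives that kept all 4 libraries. In the main design none of the 6 genes passed the threshold in any other class: 0 of 5 tested in myeloid-biased progenitor-like cells, where 6 of 7383 genes did (0.0813%), 0 of 5 in lymphoid-like cells (4 of 8668 genes, 0.0461%) and 0 of 5 in thrombocyte-like cells (5 of 3510 genes, 0.142%). In dividing lymphoid-like cells edgeR called 0 of 7019 genes (0%; 418 at an unadjusted p under 0.05, and 24 by DESeq2), in granulocyte-like cells 0 of 4498 (0%; 450, and 18 by DESeq2) and in endothelial-like cells 0 of 7981 (0%; 308, and 1 by DESeq2), with 6, 2 and 2 of the genes tested and 0 called by either tool. The remaining genes were too low to be tested there. Erythroid-like and dividing thrombocyte-like cells had 1 WT library with enough cells and were not tested.

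In granulocyte-like cells, 17 to 42 per library, neither drll.1 nor drll.2 passed in the main design, where edgeR called 0 of 4498 genes. Both parted the genotypes without overlap. How many of the 4498 genes tested there also parted without overlap was not counted, so the parting is not read as a result. drll.1 had 4.83 and 14.5 CPM in flt1−/− libraries, against 28.6 and 32.3 CPM in WT libraries, with a log2 fold change of −1.75 (SE 0.560, adjusted p 0.415). drll.2 had 8.45 and 10.2 CPM in flt1−/− libraries, against 20.7 and 50.5 CPM in WT libraries (−1.97, SE 0.570, adjusted p 0.404). The sums rest on 4 to 25 UMIs of each gene per library. Leaving out flt1−/− replicate 2 gave −2.71 for drll.1, with the spread taken from the WT pair alone and 4 UMIs in the flt1−/− library left. Over 11 alternatives drll.1 ran from −2.71 to −1.11. drll.2 passed in 2 of 10 alternatives. With the replicate number as a block its adjusted p in edgeR was 0.0238, where 150 of 4498 genes passed. Without a filter it was 0.0389, where 132 of 13423 genes passed. znfl2a in myeloid-biased progenitor-like cells had 10.5 and 11.9 CPM in flt1−/− libraries, against 18.0 and 22.7 CPM in WT libraries (−0.94, SE 0.326, edgeR adjusted p 0.480), again without overlap. Genes without overlap were not counted over the 7383 tested there either.

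A second contrast not used in choosing the genes set progenitor-like cells with a high score of 12 proliferating markers (the highest tertile in each library, 20 to 39 cells) against those with a low score (the lowest tertile), with library as a block. Over all progenitor-like cells pcna (264 CPM), mcm2 (120 CPM), mcm5 (78.6 CPM) and mki67 (72.5 CPM) were the highest of these markers. The others, such as top2a and cdk1, were at 1.39 to 10.5 CPM. Whether the high-scoring cells were dividing was not measured, so this is called the score contrast. How the score groups divided between the slc4a1a-rich cells and the other progenitor-like cells was not counted. drll.1 was also lower in the slc4a1a-rich cells, while blf was nearly equal, and the part of that split in the contrast was not tested. blf and drll.1 were lower in the high-scoring cells. blf had 549 and 1485 CPM in high-scoring flt1−/− cells and 765 and 1441 CPM in high-scoring WT cells, against 861 and 1407 CPM in low-scoring flt1−/− cells and 878 and 1552 CPM in low-scoring WT cells. It fell by 0.42 on the log2 scale (SE 0.0933, adjusted p 0.00487) and was lower in 3 of 4 libraries by CPM. drll.1 had 53.0 and 106.7 CPM in high-scoring flt1−/− cells and 99.2 and 88.0 CPM in high-scoring WT cells, against 84.7 and 119 CPM in low-scoring flt1−/− cells and 109 and 111 CPM in low-scoring WT cells. It fell by 0.53 (SE 0.171, adjusted p 0.0459) and was lower in 4 of 4 libraries. Of the 6 genes 2 were thus called lower, where 481 of 5574 genes were (8.63%), and 0 higher, where 373 were (6.69%).

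The other 4 genes did not pass the threshold. The log2 fold change was 0.01 (SE 0.174) for drl, −0.22 (SE 0.184) for drll.2, −0.09 (SE 0.116) for znfl2a and −0.01 (SE 0.127) for hdr. The scaling matters here, since TMM moved the median gene by −0.21 on the log2 scale against plain CPM. With no scaling beyond library size, blf was at −0.21 (adjusted p 0.127) and drll.1 at −0.32 (0.203), and hdr and znfl2a turned positive. The high-scoring cells were also deeper in every library, with a median of 35732 to 41157.5 UMIs, against 24035 to 36224.5 UMIs in low-scoring cells. After thinning all cells to 2000 UMIs blf was at 0.06 (adjusted p 0.901), and over 12 alternatives its adjusted p ran from 0.000827 to 0.901. drll.1 passed in 2 of 11 alternatives, with an adjusted p of 0.018 to 0.203, and was lost when any 1 library was left out.

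**Figure D5:**
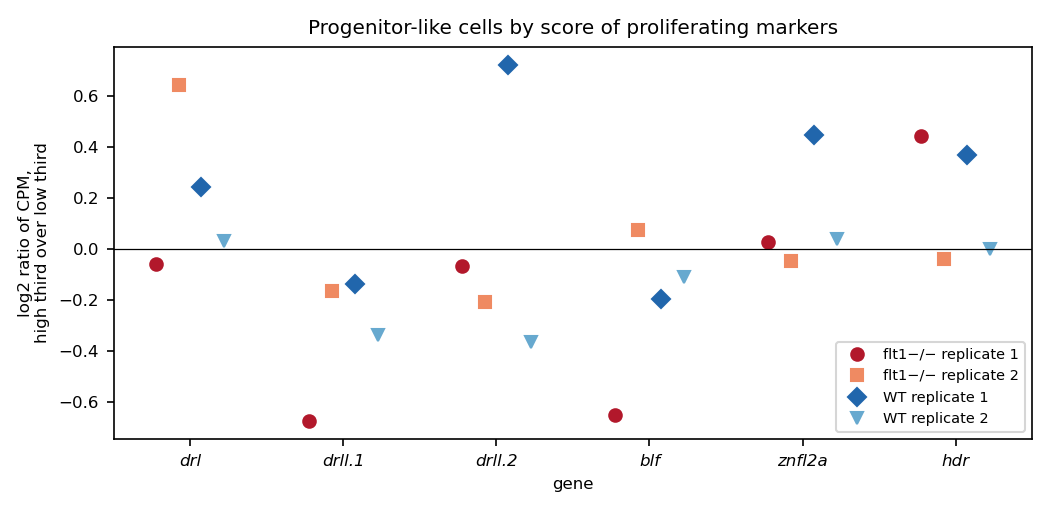
log2 ratio of CPM in high-scoring over low-scoring progenitor-like cells for each gene; each point is 1 library and the line marks no difference. The 4 points of drll.1 are all below the line and 3 of the 4 points of blf are, while those of the other genes lie on both sides.

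Of 26 blood transcription factors listed for comparison, 18 were tested in this contrast, 2 were higher and 5 lower, with a median log2 fold change of −0.09, beside −0.03 over all genes tested. Higher in the high-scoring cells were gata1a (log2 fold change 1.09, SE 0.340, adjusted p 0.0378) and meis1b (1.06, SE 0.334), a homeobox factor of progenitors. The lower ones were myb (−0.75, SE 0.0973, adjusted p 2.41e-05), needed for definitive blood stem cells, and cebpb (−1.93, SE 0.212) and runx3 (−2.05, SE 0.349), factors of myeloid and lymphoid cells. Barely past the threshold in edgeR were lmo2 (−0.35, SE 0.116, adjusted p 0.0496), a bridge protein in blood and vessel development, and gata2b (−2.80, SE 0.923, adjusted p 0.0495). gata2b was at 0 in both high-scoring flt1−/− sums, but went both ways in WT libraries (5.15 against 0 and 3.06 against 7.53 CPM). For lmo2 the TMM shift of −0.21 matters. How scaling, depth or a left-out library changes these listed genes is not given. Of 12 death receptor pathway genes, the group in which hdr acts, 2 were tested and 0 were called. Of 6 other draculin-like and znfl genes 1, drll.3, was tested and not called. By genotype none of the genes of these 3 lists passed in progenitor-like cells, where 20, 6 and 2 of them were tested. No difference of the score contrast by genotype was called for any of the 6 genes: edgeR's interaction test called 1 of 5574 genes (0.0179%), and the difference in log2 fold change, flt1−/− minus WT, was −0.26 for znfl2a and drll.2, −0.18 for drll.1, −0.14 for blf, 0.02 for hdr and 0.22 for drl, with adjusted p of 0.723 to 0.989.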

How the data were processed

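Cells were GFP+ cells sorted from 2 flt1−/− and 2 WT pools of embryos, captured with 10x Genomics 3′ chemistry, for which the labels and the methods give different versions. The deposited values are counts of UMIs per gene and cell, which the authors made with Cell Ranger 6.1.1 on GRCz11. All 6 gene IDs matched by name. Cells with over 200 and under 4500 genes and under 5% mitochondrial counts were clustered in Seurat 5.3.0 (R 4.3.3; 2000 variable genes without the 6 genes, 20 components, resolution 0.5). Of the 7677 called cells 2245 had too many mitochondrial counts and 231 too many genes, and these sets can overlap with the other limits. A cluster was named where at least 3 markers of a type were at least 2 times the mean of the other clusters and in at least 10% of cells; these thresholds were set after the clusters were seen. Scrublet called 27 cells, too few to have worked, so doublets were not removed.

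Counts were summed per library and class (at least 10 cells) and given as CPM. Genotype and score contrasts used edgeR 4.0.16 (quasi-likelihood, TMM, Benjamini-Hochberg, threshold 0.05) over all genes that passed its filter, with DESeq2 1.42.0 as an alternative. They were also run on simulated counts drawn independently for each library. That outcome is not given here, and such counts lack any deviation shared by same-numbered libraries. The libraries are separate pools, so p-values measure the spread between 2 pools per genotype. Total UMIs were 16828951 to 33837917 per library. Intervals (95%, Clopper-Pearson) and limits for a count of 0 (3 counts) cover counting error only. The members and lists were chosen with earlier results of these data known. Named were the 6 genes in each class, the 5 genes most correlated with each of them (mean of at least 10 CPM) and every gene of the lists past the threshold. Alternatives changed the scaling, filter, resolution, cell limits, doublet scores, depth and libraries; plain CPM scaling, the finer clusters and the left-out cells were added after seeing the data.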

Additional observations from a re-analysis of the deposited data

Results flagged for a closer look

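The genotype difference of drll.1 went opposite ways in 2 pairs of classes. The log2 fold change, flt1−/− over WT, was −1.75 in granulocyte-like cells and −0.451 in thrombocyte-like cells, against 0.192 in myeloid-biased progenitor-like cells. For drll.2 it was 0.848 in dividing lymphoid-like cells, against −1.97 in granulocyte-like cells. In each of these classes both flt1−/− libraries lay on the same side of both WT libraries, but outside granulocyte-like cells the nearest libraries differed by less than counting error (drll.1 at 59.89 against 59.93 CPM in thrombocyte-like and 23.2 against 22.7 CPM in myeloid-biased progenitor-like cells, drll.2 at 33.0 against 29.6 CPM in dividing lymphoid-like cells), and the differences between classes were not tested.

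The 6 genes were also present in cells outside the limits. Their summed level was 790.6 CPM on average in 231 cells with at least 4500 genes, with 535 and 768 CPM in flt1−/− libraries and 821 and 1038 CPM in WT libraries. In 2245 cells with at least 5% mitochondrial counts it was 289.4 CPM on average, with 111 and 155 CPM in flt1−/− libraries and 460 and 432 CPM in WT libraries. No test was made on these cells.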

How the results depend on the processing

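Of 30 alternative values of the mean level in progenitor-like cells, 29 lay within 1 SD; the exception was hdr at 280 CPM at the finer resolution. In the other classes 28 values moved by more, among them hdr in dividing lymphoid-like cells (110.1 CPM) with looser cell limits and znfl2a in myeloid-biased progenitor-like cells (8.88 CPM) with the 6 genes among the variable genes. The log2 fold change of drl by genotype in progenitor-like cells kept its direction throughout, at −2.20 without a filter, −2.19 in DESeq2 and −2.26 with the replicate block, and −2.98 to −1.68 with a library left out. Calls among all genes there numbered 151 without a filter, 26 in DESeq2, 142 with the replicate block, 7 at the finer resolution, 4 with looser cell limits and 0 to 162 with a library left out. Leaving out a library gave −0.98 to 0.016 for blf, −0.33 to 0.34 for drll.2 and −0.29 to 0.038 for hdr in progenitor-like cells, −1.98 to 0.24 for drl in dividing lymphoid-like cells, −1.77 to 1.2 for drl in lymphoid-like cells −0.038 to 0.37 for drll.1 and −0.47 to 1.61 for blf in myeloid-biased progenitor-like cells, and −0.75 to 1.83 for blf in lymphoid-like cells. Signs also turned for drll.2 in finer cluster 16 (−0.057), for drl in lymphoid-like cells (−0.13 at the finer resolution, −0.27 without the cells of highest doublet score) and for drll.1 in myeloid-biased progenitor-like cells (−0.18 at the coarser resolution), and for blf in lymphoid-like cells (0.00044 without a filter, 0.023 in DESeq2, 0.27 with the replicate block, 0.057 at the coarser resolution). The cause was not tested. Same-numbered libraries deviated together in every class (r = 0.206 to 0.445), but with 2 pairs and no label for a shared batch the numbers do not establish pairing. With the replicate block drl and blf also passed in myeloid-biased progenitor-like cells, where it called 320 of 7383 genes. So did drll.2 in granulocyte-like cells, where it called 150 of 4498 genes.

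In the score contrast, genes called higher and lower numbered 181 and 168 in DESeq2, 16 and 19 after thinning to 2000 UMIs, 815 and 284 without scaling, and 163 to 468 and 220 to 586 with a library left out. drll.1 lost its call with DESeq2's size factors (−0.51), without a filter (−0.45), in DESeq2 (−0.51), by a median split of the score (−0.30), without scaling (−0.32) and with any library left out (−0.60 to −0.42). blf lost it in DESeq2 (−0.40), by a median split of the score (−0.25) and without scaling (−0.21), and turned to 0.060 after thinning. hdr turned to 0.0096 with DESeq2's size factors, 0.0096 in DESeq2, 0.071 without a filter, 0.085 after thinning, 0.0049 without the cells of highest doublet score and 0.20 without scaling, and ran from −0.098 to 0.067 with a library left out. drl turned to −0.13 by a median split of the score, −0.14 with looser limits and −0.048 without the cells of highest doublet score, and ran from −0.12 to 0.12 with a library left out. drll.2 turned to 0.11 and znfl2a to 0.076 after thinning, and znfl2a to 0.12 without scaling. The cause was not tested. Thinning to 2000 in place of 1000 UMIs raised the shares of progenitor-like cells with a UMI to 15.9% to 80.4%, so these shares are set by depth.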
